A study of Rattus norvegicus with 4 samples.

Results

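The subject here is the group of enzymes that oxidise, conjugate and detoxify small molecules and that remove peroxides and superoxide, as measured in the smooth muscle wall of the rat uterus. Members were all probe sets whose single gene symbol in the platform annotation begins with Cyp1 to Cyp4 and then a letter, or with Gst, Ugt, Gpx, Sod or Prdx, or is one of a short list of partner enzymes (Cat, Hmox1, Hmox2, Nqo1, Gclc, Gclm, Gsr, Ephx1, Txn1, Txnrd1, Por and Cyb5a). The rule gave 152 of 8740 probe sets, standing for 84 of the 4736 genes with a symbol of their own, and 0 probe sets carried the symbol Txn1. All the rats were ovariectomised females aged 60 days, operated on a week before treatment. Those treated received estradiol benzoate, an ester from which estradiol is released, at 10 µg per kg, and controls received its vehicle. Myometrium was collected after 24 h or 6 h, and RNA pooled from 6 animals per group was put on 1 Affymetrix rat array. The 4 arrays are therefore estradiol and vehicle control at 24 h, and, at 6 h, an array with the estradiol label and an array with the control label.

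Cytochrome P450 enzymes insert oxygen into steroids, fatty acids and foreign compounds, with electrons supplied by the reductase Por and the small heme protein Cyb5a. Glucuronosyltransferases (Ugt) and glutathione transferases (Gst) then attach water-soluble groups to the products, and glutathione peroxidases (Gpx), catalase, peroxiredoxins and superoxide dismutases dispose of reactive oxygen. Many of these genes are known targets of the transcription factor Nfe2l2, which acts through antioxidant response elements, and the Cyp1 genes are known targets of the aryl hydrocarbon receptor, which acts through xenobiotic response elements.

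With 1 array per group there is no replicate error within a comparison, no difference between 2 arrays was tested, and the number of arrays limits the precision of every value. Values are probe set signals on a linear scale, each array scaled to a trimmed mean of 500, so a signal is set only against the same probe set on another array. The floor is the 40th percentile of an array, between 89.5 and 108 signal units, and signals at or under it have no order. A difference was counted where floored signals were at least 2-fold apart and the brighter one exceeded the floor of its array, and a fold with the dimmer array at the floor is given as at least that size. In bulk tissue, fewer cells of a type and less RNA per cell cannot be told apart. The estrogen-induced uterine genes Pgr, Igf1, Hsd11b2 and S100g were 2.74-fold to 7.79-fold higher with estradiol at 24 h. At 6 h those 4 genes were 5.79-fold to 11.2-fold lower for the estradiol label than for the control label. They thus go against the labels at 6 h, and directions there are those of the arrays as labelled. Both arrays of a time were scanned on the same day and the times on different days. Scan day and time thus cannot be told apart. For the control at 24 h the record of washing holds a communication error. The smooth muscle markers Acta2, Actg2, Myh11, Cnn1, Tagln and Des were above the floor on all 4 arrays, and 0 of these 6 passed the rule in any comparison.

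The promoters shown are 5 examples among the genes that passed the 2-fold rule on a probe set and hold a motif sought here, and others such as Gstm7, Gsta4 and Cyp4b1 are not printed. The probe set of Gpx2 and 1 of those of Gclm were at least 2-fold brighter with estradiol at 24 h than on every other array. Gsta1 and Gstm5 were lower with estradiol at 24 h, and Cyp1b1 was bright on the array labelled control at 6 h. Each is read 5′ to 3′ from RefSeq's GRCr8 assembly of the rat, from 250 bases before the transcription start to 50 after it, and for the first 4 genes capitals mark matches to TGACNNNGC, the core of the antioxidant response element, on either strand. For Cyp1b1 they mark GCGTG, the core of the xenobiotic response element.
Gpx2 (chr6:101229984-101230283, minus strand): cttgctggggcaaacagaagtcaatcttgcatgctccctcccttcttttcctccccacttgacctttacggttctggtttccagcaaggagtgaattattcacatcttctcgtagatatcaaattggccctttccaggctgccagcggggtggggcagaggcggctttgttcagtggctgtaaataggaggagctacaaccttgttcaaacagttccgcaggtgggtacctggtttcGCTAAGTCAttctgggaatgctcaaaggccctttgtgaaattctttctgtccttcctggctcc
Gclm (chr2:213031885-213032184, plus strand): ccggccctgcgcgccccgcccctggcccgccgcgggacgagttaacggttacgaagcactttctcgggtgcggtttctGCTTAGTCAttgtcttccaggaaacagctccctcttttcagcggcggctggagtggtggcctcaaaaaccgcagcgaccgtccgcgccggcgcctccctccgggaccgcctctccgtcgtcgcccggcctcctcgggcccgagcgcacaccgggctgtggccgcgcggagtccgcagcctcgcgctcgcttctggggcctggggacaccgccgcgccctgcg
Gsta1 (chr9:31216483-31216782, minus strand): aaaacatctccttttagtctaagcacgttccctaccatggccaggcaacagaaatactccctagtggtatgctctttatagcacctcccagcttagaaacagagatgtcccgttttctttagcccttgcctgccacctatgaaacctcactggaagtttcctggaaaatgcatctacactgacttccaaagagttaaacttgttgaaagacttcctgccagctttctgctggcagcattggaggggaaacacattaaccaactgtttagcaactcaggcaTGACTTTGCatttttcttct
Gstm5 (chr2:198219519-198219818, plus strand): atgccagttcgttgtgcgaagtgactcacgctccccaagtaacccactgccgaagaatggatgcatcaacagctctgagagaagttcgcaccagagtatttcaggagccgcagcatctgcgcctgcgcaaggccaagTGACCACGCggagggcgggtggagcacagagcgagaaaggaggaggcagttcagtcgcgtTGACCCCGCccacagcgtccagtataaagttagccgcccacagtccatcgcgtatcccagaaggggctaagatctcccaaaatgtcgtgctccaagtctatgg
Cyp1b1 (chr6:21094315-21094614, plus strand): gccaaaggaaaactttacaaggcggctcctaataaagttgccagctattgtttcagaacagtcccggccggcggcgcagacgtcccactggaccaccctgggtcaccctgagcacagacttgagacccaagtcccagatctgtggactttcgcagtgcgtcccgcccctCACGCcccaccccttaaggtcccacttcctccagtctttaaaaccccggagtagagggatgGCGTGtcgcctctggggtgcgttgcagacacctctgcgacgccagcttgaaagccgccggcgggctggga
The match of Gpx2 begins 13 bases before the start and that of Gclm 172 bases before it, both on the opposite strand. That of Gsta1 begins at base 31 counted from the start. The matches of Gstm5 begin 113 and 53 bases before the start, and the first of them overlaps a GCGTG match. Cyp1b1 holds GCGTG 81 and 20 bases before its start. A promoter was found for 69 of the 84 genes. TGACNNNGC occurs in 11 of them, which is 15.9%, and in 12.1% of the 33469 promoters of the table. GCGTG occurs in 20, which is 29.0% of them and 29.7% of all promoters. The estrogen response element, GGTCA and TGACC with 3 bases between them, occurs in 0 of the 69 and in 9 of all promoters. Among genes lower with estradiol at 24 h, 4 of 12 promoters hold TGACNNNGC, and among genes higher 2 of 4 do. GCGTG is held by 3 of 12 and by 0 of 4. A match is a string of letters in this window and not a measured site.

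At 24 h most members that differed were lower with estradiol. Of 100 member probe sets above the floor on at least 1 array, 21 were at least 2-fold lower and 5 at least 2-fold higher. Over all 6157 probe sets above the floor, 8.36% were lower and 8.3% higher, and 16.7% differed in either direction. The 21 lower probe sets stand for 15 genes, namely the P450 genes Cyp2b2, Cyp2c23, Cyp2e1, Cyp4a1 and Cyp4b1, their partners Cyb5a and Ephx1, the transferases Gsta1, Gsta4, Gstm2, Gstm5, Gstm7 and Gstt2, and the antioxidant enzymes Cat and Sod3. The 5 higher genes were Gpx2, Gclm, Gstk1, Txnrd1 and Prdx6. The median log2 difference over the 100 probe sets was -0.30, against -0.17 over all probe sets, which is also the value for 2 floors set against each other. With arrays scaled to a common median, which moves the median of all probe sets to -0.03, 16 were lower and 6 higher. Against the array labelled control at 6 h, an alternative added with the results in view, 9 were lower and 7 higher. Against the mean of both control arrays, 8 of the 26 kept the call, on probe sets of Cat, Cyp2c23, Cyp2e1, Cyp4a1, Gclm, Gpx2, Gsta1 and Gstk1, and 18 lost it.

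**Figure D1:**
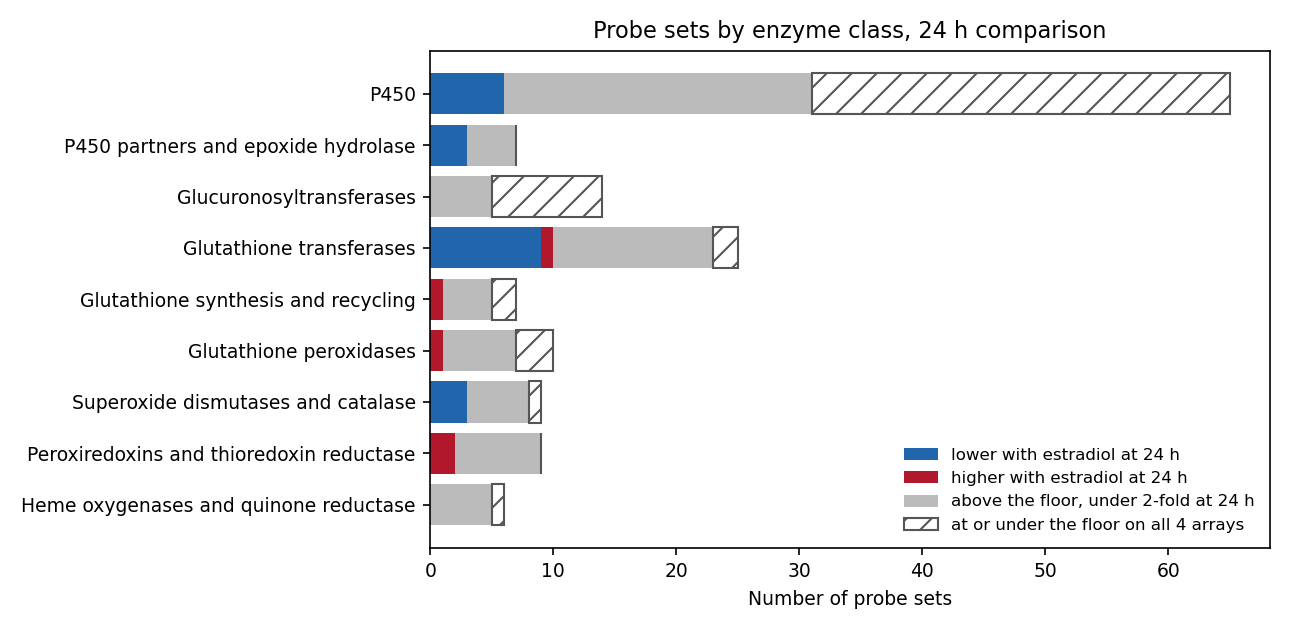
Number of member probe sets in each enzyme class, split into those at least 2-fold lower (blue) or higher (red) under estradiol than under vehicle at 24 h, those above the floor but under 2-fold (grey) and those at or under the floor on all 4 arrays (hatched). Glutathione transferases hold 9 of the 21 lower probe sets, and P450 genes hold 34 of the 52 probe sets that never exceeded the floor.

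Many P450 probe sets did not exceed the floor. At or under the floor on all 4 arrays were 52 member probe sets, 34.2% of the 152, a share near the 29.6% of all probe sets. The floor is a percentile and not a detection call, and with the floor at the 20th percentile 24 of the 152 did not exceed it. Counting only probe sets with a single symbol, 16 of 37 P450 genes had none above the floor on any array, among them Cyp1a1, the sex-dependent liver forms Cyp2c11 and Cyp2c12, and Cyp3a2, Cyp3a9 and Cyp3a18. A probe set annotated to both Cyp3a2 and Cyp3a23-3a1, and so no member, was above the floor on all 4 arrays. Of 7 liver markers, Alb, Fgb and Tat were at or under the floor on all 4 arrays, while Serpina1 exceeded it on 4 arrays, Ttr on 3, Apoa1 on 2 and Apoa2 on 1. The summed signal of 7 liver markers was 399 under estradiol against 469 under vehicle at 24 h, and 663 for the estradiol label against 648 for the control label at 6 h. On these arrays 2, 2, 3 and 3 of the markers exceeded the floor. The sums thus include signals under the floor and are not ordered here. Also without a single-symbol probe set above the floor were 5 of 10 glucuronosyltransferase genes (Ugt1a5, Ugt1a9-ps, Ugt2b15, Ugt2b35 and Ugt8), the peroxidases Gpx5 and Gpx6, and Gclc, the catalytic subunit of glutamate-cysteine ligase, the enzyme that limits glutathione synthesis. Shared probe sets that list Ugt1a5 beside other Ugt1a genes were above the floor on all 4 arrays. The single probe set of Gclc gave 72.9 under estradiol against 87.6 under vehicle at 24 h, and 20.1 for the estradiol label against 103 for the control label at 6 h.

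Among P450 genes with signal, 6 of 31 probe sets were lower with estradiol at 24 h and 0 higher. Cyp2e1, the form that oxidises ethanol and small solvents, was lower on 2 of its 3 probe sets. Its brightest, M20131cds_s_at, read 176 under estradiol against 504 under vehicle at 24 h, and 608 for the estradiol label against 316 for the control label at 6 h, and was 2.87-fold lower with estradiol at 24 h. S48325_s_at read 193 under estradiol against 399 under vehicle at 24 h, and 561 for the estradiol label against 343 for the control label at 6 h. The lowest signal of both probe sets was thus on the estradiol array at 24 h, while the array labelled estradiol at 6 h was the brightest, and its 1.92-fold and 1.63-fold differences from the array labelled control missed the rule. S48325_s_at, 2.06-fold lower at 24 h, missed the rule when every array was set to the same median.

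Cyp4b1, a form active mostly outside the liver, read 87.4 under estradiol against 233 under vehicle at 24 h, the first under the floor, and was at least 2.60-fold lower. At 6 h it read 229 for the estradiol label against 37.2 for the control label at 6 h, this second value again under the floor, and was at least 2.11-fold higher on the array labelled estradiol. The fatty acid hydroxylase Cyp4a1 gave 93.1 under estradiol against 217 under vehicle at 24 h on X07259cds_s_at, 2.33-fold lower, with 249 for the estradiol label against 295 for the control label at 6 h. Cyp2c23, which in the rat kidney turns arachidonic acid into epoxides, gave 89.0 under estradiol against 214 under vehicle at 24 h on X55446mRNA_at, at least 2.39-fold lower, and 201 for the estradiol label against 206 for the control label at 6 h. For these last genes the arrays at 6 h lay close to the control at 24 h, and only the estradiol array at 24 h was dim. Cyp2b2, a phenobarbital-induced form in rat liver, was at least 2.27-fold lower on K01721mRNA_s_at, where only the control at 24 h, at 203, exceeded its floor. A second probe set of Cyp2c23, rc_AI169372_g_at, was 1.23-fold lower, under the rule. The other probe sets with a single symbol of these 3 genes were at or under the floor on both arrays at 24 h. Among probe sets that Cyp2b2 shares with another gene, K00996mRNA_s_at was 1.17-fold lower, under the rule, and M13234cds_f_at 2.14-fold lower. When the probe sets of a gene were averaged, the 3 genes were under 2-fold.

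Cyp2d2 and Cyp4f6 passed the rule at 6 h and not at 24 h. Cyp2d2 read 129 under estradiol against 206 under vehicle at 24 h, and 254 for the estradiol label against 118 for the control label at 6 h, and was 2.15-fold higher on the array labelled estradiol at 6 h. Cyp4f6 read 629.7 under estradiol against 942 under vehicle at 24 h, and 1001 for the estradiol label against 476 for the control label at 6 h, and was 2.10-fold higher there. Both genes were also brighter in the control than with estradiol at 24 h, by under 2-fold. Cyp2d4, a P450 of the brain and other tissues in the rat, differed less, with 1146 under estradiol against 1563 under vehicle at 24 h, and 1366 for the estradiol label against 1221 for the control label at 6 h on its brighter probe set.

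Cyp1b1, which hydroxylates estradiol itself, stood out on a single array. Its probe set rc_AI176856_at read 172 under estradiol against 38.7 under vehicle at 24 h, and 10.6 for the estradiol label against 422 for the control label at 6 h. Estradiol at 24 h was above its floor, while vehicle at 24 h and the estradiol label at 6 h were not. U09540_at followed with 136 under estradiol against 42.1 under vehicle at 24 h, and 70.8 for the estradiol label against 374 for the control label at 6 h. On the array labelled control at 6 h, 3 of the 4 Cyp1b1 probe sets were bright, so that Cyp1b1 was at least 4.12-fold lower, at least 3.65-fold lower and at least 2.61-fold lower on the array labelled estradiol. The other probe set, X83867cds_s_at, was at or under the floor on both arrays at 6 h. At 24 h rc_AI176856_at was at least 1.71-fold higher with estradiol, under the rule. A probe set of Cyp1a2, M26127_s_at, was also brightest on the array labelled control at 6 h, at 209, against 39.0 on the array labelled estradiol, while the other 2 probe sets of Cyp1a2 were under the floor on all arrays.

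Among the partner enzymes of P450, 3 of 7 probe sets were lower with estradiol at 24 h and 3 higher on the array labelled estradiol at 6 h, those of Cyb5a and Ephx1. Cyb5a, cytochrome b5, had 312 under estradiol against 1279 under vehicle at 24 h, and 823 for the estradiol label against 219.7 for the control label at 6 h on rc_AA945054_s_at. AF007107_s_at gave 385 under estradiol against 884 under vehicle at 24 h, and 563 for the estradiol label against 181 for the control label at 6 h. The control at 24 h was the brightest and the array labelled estradiol at 6 h the next on both. Cyb5a was 4.11-fold lower and 2.30-fold lower with estradiol at 24 h, and 3.74-fold higher and 3.12-fold higher on the array labelled estradiol at 6 h. Against the mean of both control arrays the log2 differences at 24 h were -0.77 and -0.055, so that neither probe set of Cyb5a kept the call. Its other probe set, rc_AA817685_at, was under the floor on both arrays at 24 h. Ephx1, the microsomal hydrolase that opens epoxides made by P450, read 179 under estradiol against 409.9 under vehicle at 24 h, and 400.1 for the estradiol label against 112 for the control label at 6 h, and was 2.29-fold lower at 24 h and 3.56-fold higher at 6 h as labelled. Por, the reductase that feeds electrons to microsomal P450 enzymes, gave no such difference. Its brightest probe set read 1069 under estradiol against 1372 under vehicle at 24 h, and 1409 for the estradiol label against 939 for the control label at 6 h, and 0 of its 3 probe sets passed the rule in any comparison.

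Glutathione transferases were the class with the most lower probe sets at 24 h, 9 of 23 above the floor, with 1 higher and a median log2 difference of -0.92. Gsta4, which conjugates aldehydes from oxidised lipids, read 183 under estradiol against 372 under vehicle at 24 h, and 392 for the estradiol label against 42.1 for the control label at 6 h on X62660mRNA_at. X62660mRNA_g_at read 248 under estradiol against 567 under vehicle at 24 h, and 552 for the estradiol label against 362 for the control label at 6 h. Both probe sets were lower with estradiol at 24 h, 2.03-fold lower and 2.28-fold lower. They parted on the array labelled control at 6 h, where the first was under the floor and the second was not, so that only the first passed the rule at 6 h. Gsta1 is represented by 3 probe sets whose names end in _f_at, the ending Affymetrix gave to sets that may detect several members of a family. S72505_f_at, K01932_f_at and X78848cds_f_at gave 326, 376 and 511 with estradiol and 982, 957 and 968 in the control at 24 h. The first and second were 3.02-fold lower and 2.54-fold lower, and X78848cds_f_at was 1.90-fold lower, under the rule. At 6 h the same probe sets gave 968, 850.0 and 1076 on the array labelled estradiol and 537, 522 and 539.8 on the array labelled control.

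In the mu class Gstm2, Gstm5 and Gstm7 were lower with estradiol at 24 h, and Gstm1 did not pass the rule. Gstm5 read 321 under estradiol against 689.9 under vehicle at 24 h, and 356 for the estradiol label against 189 for the control label at 6 h on U86635_at, and was 2.15-fold lower and 2.04-fold lower with estradiol at 24 h on its probe sets. Gstm2 was 2.53-fold lower on J03914cds_s_at, with 337 under estradiol against 852 under vehicle at 24 h, and 1.85-fold lower on J02592_s_at. Gstm7 read 195 under estradiol against 458 under vehicle at 24 h, 2.35-fold lower. These genes are close relatives, and signal from one on the probe set of another was not measured. For Gstm1, J02810mRNA_s_at gave 498 under estradiol against 629 under vehicle at 24 h, and 629.9 for the estradiol label against 663 for the control label at 6 h, within 1.5-fold on all 4 arrays. Only X04229cds_s_at of its 3 probe sets passed the rule, 2.39-fold higher on the array labelled estradiol at 6 h. Both probe sets of Gstm5, and X62660mRNA_at of Gsta4, missed the rule when every array was set to the same median.

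Gstt2, of the theta class, gave 1244 under estradiol against 2438 under vehicle at 24 h, and 2919 for the estradiol label against 708 for the control label at 6 h on rc_AI138143_at. D10026_s_at gave 190.5 under estradiol against 422 under vehicle at 24 h, and 601 for the estradiol label against 248 for the control label at 6 h. The array labelled estradiol at 6 h was the brightest on both, and Gstt2 was 4.12-fold higher and 2.42-fold higher there. With estradiol at 24 h it was 2.21-fold lower on D10026_s_at and 1.96-fold lower, under the rule, on rc_AI138143_at. Gstt1 was 1.47-fold lower at 24 h, and Gstp1, the pi class enzyme, 1.59-fold lower and 1.90-fold lower, all under the rule. The omega class enzyme Gsto1 gave 1687 under estradiol against 1363 under vehicle at 24 h on AB008807_g_at. Gsta3 differed only at 6 h, on S82820mRNA_s_at, with 225 for the estradiol label against 487 for the control label at 6 h.

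Gstk1, a transferase of mitochondria and peroxisomes, passed the rule upwards in both comparisons as labelled, which no other member gene did. If the direction at 6 h is turned, Gstk1 goes opposite ways at the 2 times, and Prdx6, and on different probe sets Txnrd1, pass upwards at both. S83436_i_at read 623 under estradiol against 215 under vehicle at 24 h, and 567 for the estradiol label against 114 for the control label at 6 h, 2.90-fold higher at 24 h and 4.97-fold higher at 6 h as labelled. Its other probe set, rc_AI105137_s_at, read 208 under estradiol against 197 under vehicle at 24 h, and 184 for the estradiol label against 37.4 for the control label at 6 h, the last under its floor. The probe sets of Gstk1 thus share a dim array labelled control at 6 h and differ on the control at 24 h, and their mean was under 2-fold at 24 h.

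Of 5 glucuronosyltransferase probe sets above the floor, 0 passed the rule in any comparison. The largest difference at 24 h was that of Ugt2a1, with 79.8 under estradiol against 115 under vehicle at 24 h, the first under the floor. A probe set named for Ugt2b, M74439mRNA_i_at, was the only one of the class above the floor on all 4 arrays, with 544 under estradiol against 691 under vehicle at 24 h, and 741 for the estradiol label against 961 for the control label at 6 h.

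**Figure D2:**
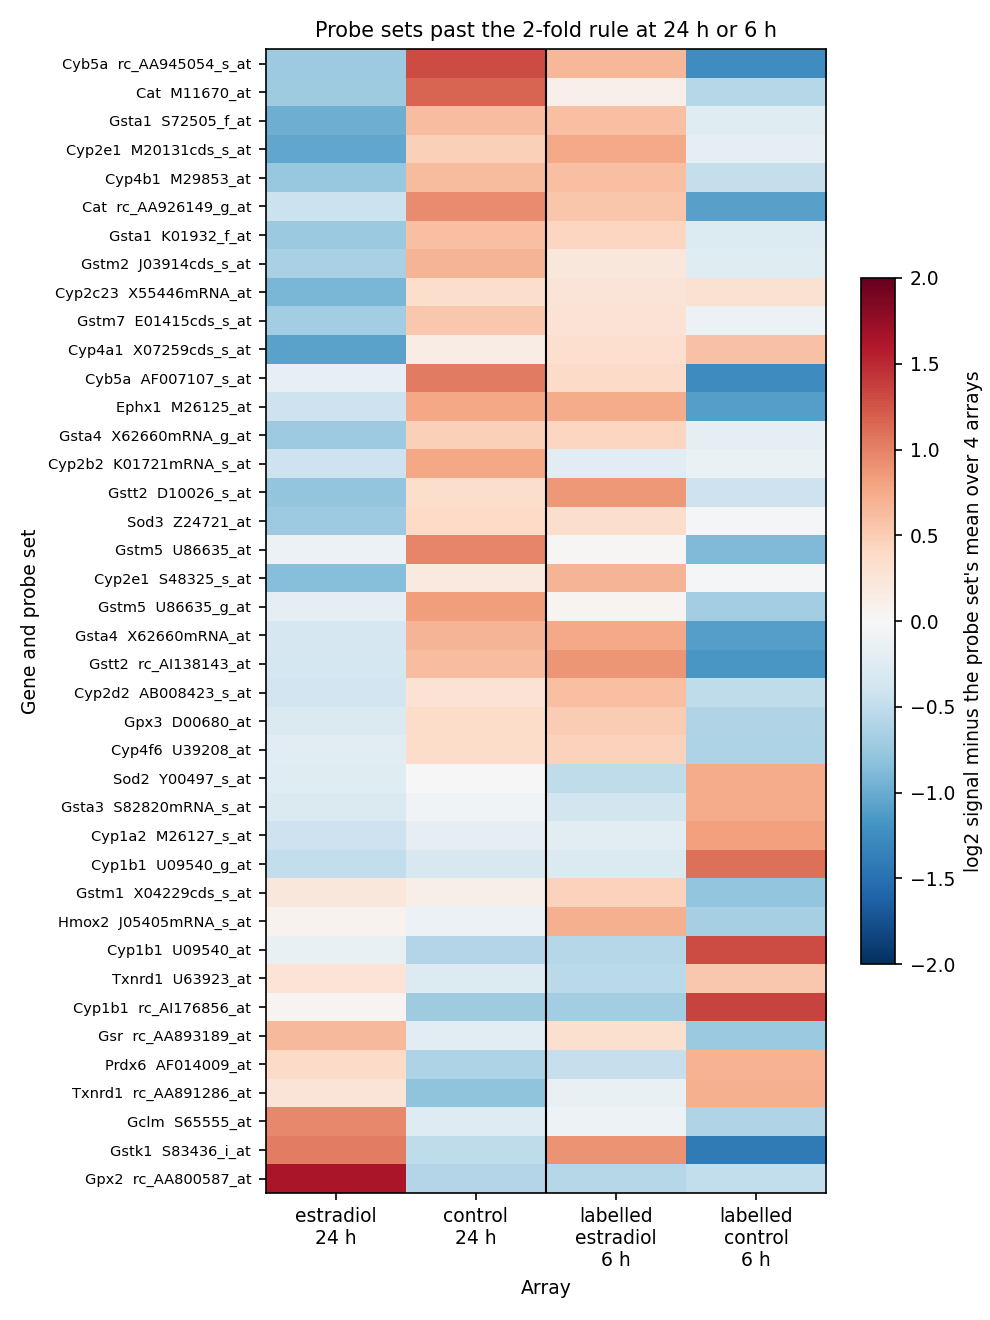
The 40 member probe sets, of 30 genes, past the 2-fold rule at 24 h or at 6 h, sorted by their difference at 24 h. Columns are the 4 arrays and colour is the floored log2 signal minus the probe set's mean over the arrays, so that red is above and blue below that mean. Most upper rows are blue on the estradiol array at 24 h and red on the control at 24 h and on the array labelled estradiol at 6 h, while Gpx2 at the bottom is red on the estradiol array at 24 h only.

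Catalase, which breaks down hydrogen peroxide in peroxisomes, was the gene with the second largest fold among those lower at 24 h, after Cyb5a. M11670_at gave 98.2 under estradiol against 360.2 under vehicle at 24 h, and 173 for the estradiol label against 93.4 for the control label at 6 h, the last under its floor. Its probe set rc_AA926149_g_at gave 229 under estradiol against 590.3 under vehicle at 24 h, and 453 for the estradiol label against 145 for the control label at 6 h. The control at 24 h was the brightest on both, and Cat was 3.67-fold lower and 2.58-fold lower with estradiol at 24 h. At 6 h the second was 3.12-fold higher on the array labelled estradiol. Another probe set, rc_AA926149_at, was under the floor on both arrays at 24 h. Sod3, the extracellular superoxide dismutase, gave 243 under estradiol against 529 under vehicle at 24 h, and 516 for the estradiol label against 399 for the control label at 6 h, 2.18-fold lower at 24 h, and missed the rule when every array was set to the same median. Sod1, the cytosolic form, passed the rule on 0 of its 3 probe sets and gave 3114 under estradiol against 3472 under vehicle at 24 h on M21060_s_at. Sod2, the mitochondrial form that inflammatory signals induce, was brightest on the array labelled control at 6 h, with 360.3 under estradiol against 428 under vehicle at 24 h, and 299.8 for the estradiol label against 708 for the control label at 6 h, and was 2.36-fold lower on the array labelled estradiol.

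Gpx2, a selenium-containing peroxidase best known from gut epithelium, had the largest difference of any member at 24 h. Its probe set rc_AA800587_at read 473 under estradiol against 44.9 under vehicle at 24 h, and 22.5 for the estradiol label against 93.9 for the control label at 6 h, and only the estradiol array at 24 h exceeded its floor, which makes Gpx2 at least 4.69-fold higher with estradiol. When the floor was raised to the 60th percentile, the difference was 0.92 on the log2 scale, under the rule. Of 6 epithelial markers on the array, 5 were also at least 2-fold higher with estradiol at 24 h. The other, Muc1, was 1.46-fold lower. The summed signal of the 6 markers was 3605 under estradiol against 1157 under vehicle at 24 h, and 652 for the estradiol label against 1773 for the control label at 6 h, with no marker under the floor at 24 h. At 6 h, 2 exceeded the floor for the estradiol label and 5 for the control label, so those sums include signals under the floor. The part of epithelium in the difference of Gpx2 was not tested.

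The other peroxidases did not pass the rule at 24 h. Gpx1, the common intracellular form, read 11203 under estradiol against 9380.1 under vehicle at 24 h, and 7317 for the estradiol label against 10597 for the control label at 6 h on X12367cds_s_at. Gpx4, which protects membrane lipids, read 2836 under estradiol against 3413 under vehicle at 24 h, and 2536 for the estradiol label against 3330.2 for the control label at 6 h. No pair of the 4 arrays differed by 2-fold on either probe set. Gpx3, the secreted form, gave 849 under estradiol against 1412 under vehicle at 24 h, and 984 for the estradiol label against 533 for the control label at 6 h on rc_AI172411_at, and was 2.16-fold higher on D00680_at on the array labelled estradiol at 6 h. Gpx7 was nearly equal at 24 h, with 607 under estradiol against 599.8 under vehicle at 24 h, but 2.40-fold higher in the control at 24 h than on the array labelled control at 6 h, where it read 250.4.

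Of 5 probe sets for glutathione synthesis and recycling above the floor, 1 was at least 2-fold higher with estradiol at 24 h and 0 lower, with a median log2 difference of 0.51. Gclm, the regulatory subunit of glutamate-cysteine ligase, gave 367 under estradiol against 157 under vehicle at 24 h, and 176 for the estradiol label against 124 for the control label at 6 h on S65555_at, 2.33-fold higher at 24 h, and was higher by under 2-fold on its other probe sets, S65555_g_at (172 with estradiol, 122 in the control) and rc_AI233261_i_at (144 with estradiol, 88.8 in the control, which is under the floor). The mean of the Gclm probe sets was under 2-fold. Gsr, the reductase that recycles oxidised glutathione, read 285 under estradiol against 155 under vehicle at 24 h, and 227 for the estradiol label against 42.0 for the control label at 6 h on rc_AA893189_at, 1.84-fold higher at 24 h and at least 2.10-fold higher at 6 h, the array labelled control at 6 h being under its floor. Its probe set U73174_at, at 143 under estradiol against 132 under vehicle at 24 h, and 103 for the estradiol label against 21.1 for the control label at 6 h, was 1.09-fold higher at 24 h and did not pass the rule at either time.

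Among peroxiredoxins and thioredoxin reductase, 2 of 9 probe sets were higher with estradiol at 24 h and 0 lower. Txnrd1, the selenoenzyme that keeps thioredoxin reduced, gave 1979.7 under estradiol against 944 under vehicle at 24 h, and 1494 for the estradiol label against 2699 for the control label at 6 h on rc_AA891286_at. U63923_at gave 511 under estradiol against 348 under vehicle at 24 h, and 292 for the estradiol label against 616 for the control label at 6 h. Both were brightest for the control label at 6 h and next brightest under estradiol at 24 h. Txnrd1 was 2.10-fold higher and 1.47-fold higher with estradiol at 24 h, and 1.81-fold lower and 2.11-fold lower on the array labelled estradiol at 6 h, so that 1 probe set passed the rule at each time, and their mean was under 2-fold at 24 h. Prdx6, a peroxiredoxin that also has phospholipase activity, passed it on AF014009_at, with 356 under estradiol against 177 under vehicle at 24 h, and 197 for the estradiol label against 441 for the control label at 6 h, but its brightest probe set, rc_AA892041_at, read 1505 under estradiol against 1336 under vehicle at 24 h, and 1159 for the estradiol label against 1645 for the control label at 6 h. Prdx1 read 4245 under estradiol against 2351 under vehicle at 24 h, and 2254 for the estradiol label against 3017 for the control label at 6 h, 1.81-fold higher at 24 h. Prdx2 and Prdx3 were within 1.5-fold in each comparison. All 9 probe sets, which stand for 5 genes, had a positive difference at 24 h and a negative one at 6 h as labelled. Only 2 passed the rule at each time. Over all probe sets the 2 differences were inversely related too, with a Pearson correlation of -0.26. The share of all probe sets with these signs was not counted.

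The heme oxygenases and the quinone reductase Nqo1 did not differ past the rule at 24 h. Hmox1, the inducible heme oxygenase and like Nqo1 a classical Nfe2l2 target, gave 403 under estradiol against 358 under vehicle at 24 h, and 432 for the estradiol label against 501 for the control label at 6 h on rc_AI179610_at. Nqo1 gave 206 under estradiol against 303 under vehicle at 24 h, and 237 for the estradiol label against 241 for the control label at 6 h. Hmox2, the constitutive form, gave 272 under estradiol against 240.0 under vehicle at 24 h on J05405mRNA_s_at. It was 2.58-fold higher on the array labelled estradiol at 6 h, where U05013_at was 1.19-fold lower.

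**Figure D3:**
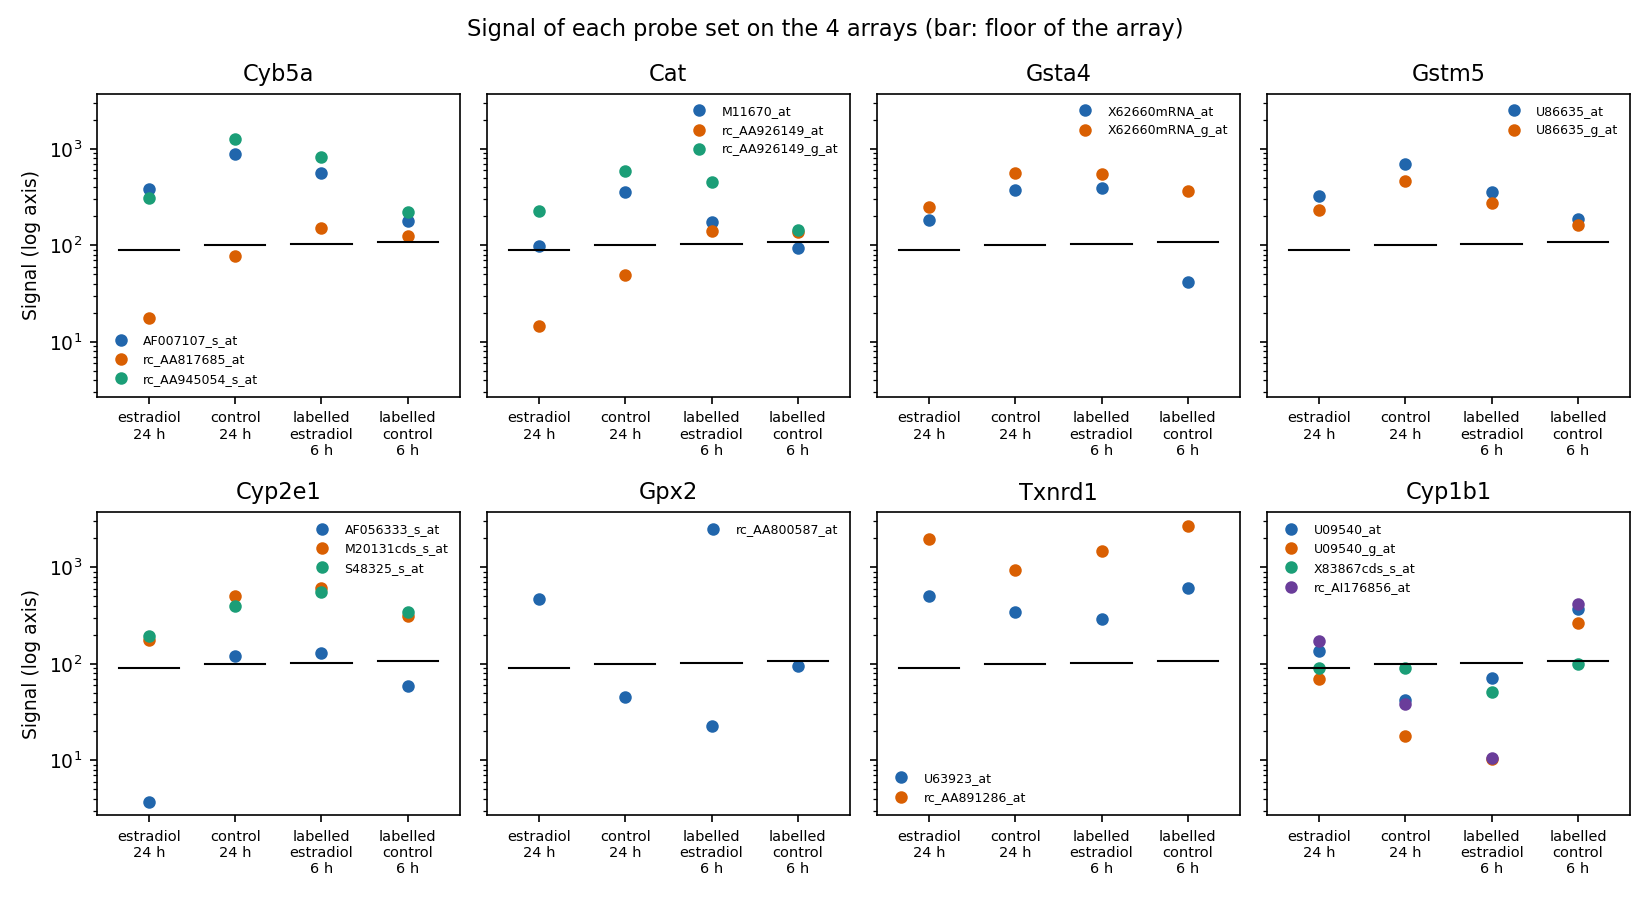
Signal of each probe set of 8 genes on the 4 arrays, on a log axis, with a black bar at the floor of each array. Probe sets of Cyb5a, Cat, Gsta4 and Gstm5 above the floor are brighter in the control than with estradiol at 24 h. Gpx2 exceeds the floor on the estradiol array at 24 h only, and 3 probe sets of Cyp1b1 are brightest on the array labelled control at 6 h.

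At 6 h most members that differed were higher on the array labelled estradiol. Of the 100 probe sets, 15 were at least 2-fold higher on the array labelled estradiol and 8 lower, 23 in all, against 6.94% higher, 5.38% lower and 12.3% in either direction over all probe sets. The comparisons at 24 h and 6 h share no array. Of the 21 probe sets lower with estradiol at 24 h, 7 were higher on the array labelled estradiol at 6 h, which is 33.3%, and 0 were lower. If the direction at 6 h is turned, the same 7 are lower at both times. The 13 genes higher there were Cat, Cyb5a, Ephx1, Cyp2d2, Cyp4b1, Cyp4f6, Gsta4, Gstk1, Gstm1, Gstt2, Gsr, Gpx3 and Hmox2, and the 6 lower were Cyp1a2, Cyp1b1, Gsta3, Prdx6, Sod2 and Txnrd1. Over all probe sets lower at 24 h the share higher at 6 h was 23.1%, and the share lower at 6 h was 1.55%. Across the 100 member probe sets the differences at 24 h and 6 h had a Pearson correlation of -0.43 and a Spearman correlation of -0.50, against -0.26 and -0.21 across all 6157. With the direction at 6 h turned, the coefficients are 0.43 and 0.50 across members and 0.26 and 0.21 across all. As labelled, the 71 members above the floor on all 4 arrays gave -0.45 and -0.54, against -0.31 and -0.26 across all 4267 such probe sets. Probe sets share their arrays, so these coefficients are descriptions. With the control at 24 h in place of the array labelled control at 6 h, an alternative added with the results in view, 3 members were higher and 1 lower on the array labelled estradiol.

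**Figure D4:**
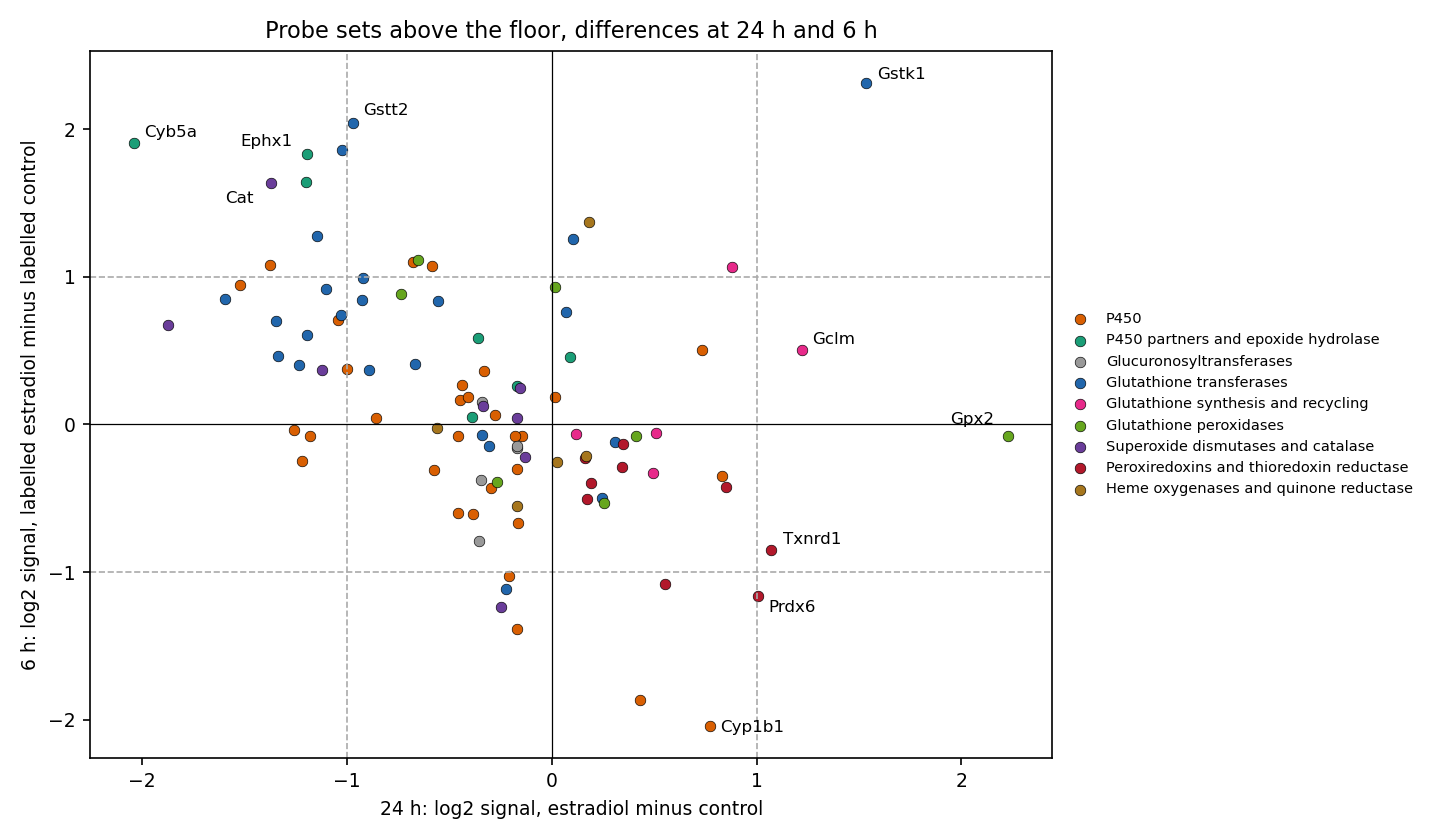
Log2 difference of each of the 100 member probe sets above the floor, at 24 h (estradiol minus control, horizontal) and at 6 h (array labelled estradiol minus array labelled control, vertical), coloured by class, with dashed lines at 2-fold. Cyb5a, Ephx1, Cat and Gstt2 lie at the upper left, Txnrd1, Prdx6 and Cyp1b1 at the lower right, and Gstk1 alone at the upper right beyond 2-fold on both axes.

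The control arrays differed from each other too. In the control at 24 h, 12 member probe sets were higher than on the array labelled control at 6 h and 7 lower, 19 in all, against 8.43% higher, 9.45% lower and 17.9% in either direction over all probe sets. With every array set to the same median the split was 18 higher and 6 lower. This comparison shares the control at 24 h with one of the others and the array labelled control at 6 h with the other. Cyb5a was 5.82-fold higher and 4.90-fold higher in the control at 24 h, Cat 4.06-fold higher and at least 3.33-fold higher, and Ephx1 3.65-fold higher. Gstm5 was 3.66-fold higher and 2.88-fold higher, Gstt2 3.44-fold higher on rc_AI138143_at, and Gsta4 at least 3.44-fold higher on X62660mRNA_at. Gpx3 was 2.65-fold higher on rc_AI172411_at, Gpx7 2.40-fold higher and Cyp4b1 at least 2.15-fold higher. A probe set of Cyp3a23-3a1, L24207_i_at, was at least 4.85-fold lower, with 77.3 in the control at 24 h, under the floor, against 489 for the control label at 6 h. Its other probe sets did not pass the rule. Probe sets of Cyp1b1 were at least 4.18-fold, 3.71-fold and 2.66-fold lower in the control at 24 h. Txnrd1 was 2.86-fold lower on rc_AA891286_at, Prdx6 2.49-fold lower on AF014009_at and Cyp1a2 2.02-fold lower on M26127_s_at. The remaining 28 genes above the floor, among them Por, Gpx1, Gpx4, Gstp1, Hmox1, Nqo1, Sod1 and Prdx1, passed the rule in no comparison. Of 28 genes with several measured probe sets, 12 passed it on some but not all of them at 24 h and 2 on all of them, and 0 genes passed it in both directions.

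A limma fit of all 4 arrays with treatment and time as labelled called 0 of the 100 members and 0% of the 6157 probe sets after Benjamini-Hochberg adjustment, with 1 residual degree of freedom. The smallest adjusted p of a member was 0.999, and 2 members, Gstk1 and Gsr, had an unadjusted p under 0.05, at 0.00749 and 0.0462. That is 2% of members, near the 1.69% of all probe sets, and the fit takes the labels at 6 h as given. These 2 genes were higher on the estradiol-labelled array at both times, whereas differences of opposite sign at the 2 times cancel in the treatment term.

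Neighbouring redox and detoxification genes were counted from a separate list. On this list of 56 such genes, 33 were on the array and 30 above the floor, each taken by its brightest probe set. At 24 h 5 were lower with estradiol and 3 higher, against 8.03% and 8.67% of 3622 named genes. At 6 h 7 were higher on the array labelled estradiol and 0 lower, against 6.46% and 5.08%. Sult1a1, a sulfotransferase of phenols and catechols, gave 149 under estradiol against 1096 under vehicle at 24 h, and 1003 for the estradiol label against 215 for the control label at 6 h, 7.34-fold lower at 24 h and 4.66-fold higher at 6 h as labelled. Txnip, which binds and inhibits thioredoxin, gave 2186 under estradiol against 7576 under vehicle at 24 h, and 5655 for the estradiol label against 2014 for the control label at 6 h, 3.47-fold lower and 2.81-fold higher. Mgst1, a membrane-bound glutathione transferase, gave 1249 under estradiol against 3074 under vehicle at 24 h, and 2834 for the estradiol label against 961 for the control label at 6 h, 2.46-fold lower and 2.95-fold higher. Selenop, the selenium carrier of plasma, gave 2937 under estradiol against 5951 under vehicle at 24 h, and 5340.3 for the estradiol label against 2639 for the control label at 6 h, 2.03-fold lower and 2.02-fold higher. These 4 genes were dim under estradiol at 24 h and for the control label at 6 h, and bright on the other 2 arrays.

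Aldh3a1, an aldehyde dehydrogenase, was 2.11-fold lower at 24 h. Txnrd2 was 3.30-fold lower at 24 h on AF072865_g_at. Its brighter probe set, the one counted, was 1.25-fold lower, under the rule. The NADPH-producing enzymes Me1 and Idh1 were 2.77-fold higher and 2.35-fold higher with estradiol at 24 h, and Gss, the second enzyme of glutathione synthesis, 2.37-fold higher. Maob was 3.85-fold higher, Idh1 2.48-fold higher and Aldh1a1 2.05-fold higher on the array labelled estradiol at 6 h. Nfe2l2 itself gave 482 under estradiol against 408 under vehicle at 24 h, and 422 for the estradiol label against 295 for the control label at 6 h on its brighter probe set, under 2-fold in each comparison. Ahr, the gene of the aryl hydrocarbon receptor, was at or under the floor on all 4 arrays on each of its probe sets.

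Markers of other cell types also differed between the arrays. Of 5 adipocyte markers on the array, 2 were lower with estradiol at 24 h, Lpl by 6.08-fold and Cfd by at least 6.28-fold. The summed adipocyte signal was 2404 under estradiol against 5770 under vehicle at 24 h, and 4282 for the estradiol label against 4741 for the control label at 6 h. Plin1 was at or under the floor on all 4 arrays and Fabp4 on 3. Lep, a large part of these sums, was 1.27-fold lower at 24 h and passed the rule in no comparison. It read 1901 under estradiol against 2411 under vehicle at 24 h, and 2621 for the estradiol label against 3227 for the control label at 6 h. Lpl alone read 456 under estradiol against 2775 under vehicle at 24 h, and 1222 for the estradiol label against 565 for the control label at 6 h. Of 6 stromal markers, 2 were lower at 24 h, Mme and Vcam1, with summed signals of 35962 under estradiol against 34463 under vehicle at 24 h, and 27653 for the estradiol label against 24332 for the control label at 6 h. Red blood cells are rich in Cat and Prdx2. Their 4 markers summed to 14494 under estradiol against 21176 under vehicle at 24 h, and 9382 for the estradiol label against 14938 for the control label at 6 h, and 0 of them passed the rule within a time. Of 8 macrophage and leukocyte markers, 3 were lower at 24 h (Cd53, Cd74 and RT1-Da) and 2 higher (Lyz2 and Coro1a), with sums of 5968 under estradiol against 7680 under vehicle at 24 h, and 6335 for the estradiol label against 8690 for the control label at 6 h. Of 4 endothelial markers 1 was lower at 24 h, Flt1, with sums of 761 under estradiol against 1348 under vehicle at 24 h, and 1044 for the estradiol label against 1325 for the control label at 6 h. Kdr alone was lower for the estradiol label at 6 h, 3.83-fold, at 184 against 705 for the control label. Pecam1, Flt1 and Vwf were higher for the estradiol label there, by under 2-fold. The part of these cells in the differences of member genes was not tested.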

How the data were processed

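RNA from the myometrium of 6 rats per group was pooled, per the labels' protocols, and put on 1 Affymetrix rat array per group, 4 arrays in all. The authors' deposited values are MAS5 signals, linear intensity values with 1 number per probe set, per the submitters' processing notes; the software version is not given in the sources used here. Every deposited array has a 2% trimmed mean of 500, so scaling to that mean left the values as deposited. The 59 Affymetrix control probe sets were left out of 8799. Probe sets were named from the platform annotation, in which 7018 have 1 symbol, 308 several and 1473 none, and only those with 1 symbol could be members. All 84 member symbols matched RefSeq.

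Signals were raised to a floor, the 40th percentile of each array, and log2 differences taken between pairs of arrays. A 2-fold rule took the place of a test. The only fit, limma 3.58.1 (R 4.3.3) on all 4 arrays with treatment and time as labelled, was tested on simulated data first. Other computation used Python 3.11.15, numpy 2.4.6, pandas 2.3.3, scipy 1.17.1 and matplotlib 3.10.9. Promoters were searched on both strands. The genes named are every member past 2-fold in a comparison, the gene of each class with the largest difference at 24 h, a fixed set of well-known members, and genes past 2-fold on the list of neighbouring genes. Members and lists were chosen with earlier results of these data known. The alternatives tried changed the scaling, floor, pseudocount, fold rule, probe sets per gene and control array.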

Additional observations from a re-analysis of the deposited data

Results flagged for a closer look

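In 8 probe sets the difference passed 2-fold in opposite directions at 24 h and at 6 h as labelled, with 1 array per group at each time. Of these, 7 were lower at 24 h and higher at 6 h, and 1 was the reverse, among 100 members above the floor. Such opposite calls occurred across the whole array. Of all 6157 probe sets above the floor, 119 were lower at 24 h and higher at 6 h, and 93 were the reverse. The difference between the times was not tested, the times were scanned on separate days, and the estrogen-induced genes go against the labels at 6 h. The values here are the log2 difference at 24 h (estradiol minus control) minus that at 6 h (array labelled estradiol minus array labelled control). Among genes lower with estradiol at 24 h, Cyb5a gave -3.94 on rc_AA945054_s_at and -2.84 on AF007107_s_at. Ephx1 gave -3.03. Cat gave -3.01 on rc_AA926149_g_at, and Gsta4 gave -2.88 on X62660mRNA_at. Cyp4b1 gave -2.46 and Gstt2 gave -2.42 on D10026_s_at. Prdx6 gave 2.17 on AF014009_at, the probe set in the group that was higher with estradiol at 24 h.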

How the results depend on the processing

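No paired analysis was possible because each group has 1 array and the labels give no replicate numbers. The limma fit holds time as a term, with 1 array per treatment and time. With 1 array per group no replicate could be left out. At 24 h 26 member probe sets differed. The count was 45 with the floor at the 20th percentile and 14 at the 60th, 41 with a 1.5-fold rule and 4 with a 3-fold rule. It was 11 of the 41 probe sets left without special name endings, 16 by the brightest probe set per gene, 12 by averaging the probe sets of a gene, and 10 against the mean of both control arrays. Against the array labelled control at 6 h, chosen after seeing the data, it was 16. At 6 h 23 differed, and the corresponding counts were 8 with the floor at the 60th percentile, 43 and 9 with the 1.5-fold and 3-fold rules, 11 without special endings, 13 by the brightest probe set, 10 by the mean, 4 against both controls and 4 against the control at 24 h, the last chosen after seeing the data. Between the controls 19 differed, with 32 and 8 at the 20th and 60th percentile, 46 and 11 with the 1.5-fold and 3-fold rules, 12 without special endings, 11 by the brightest probe set and 11 by the mean. The number at or under the floor on all arrays was 52, with 24 and 81 at the 20th and 60th percentile. Fewer probe sets enter where endings or repeats are left out. The median log2 difference at 24 h of -0.30 was -0.16 with a common median, -0.19 with quantile normalization and -0.17 without special endings, and the median of 0.05 at 6 h was 0.16 with a pseudocount of 50. Of 485 values of named calls under the alternatives, 371 stayed past the rule, 112 did not and 2 changed sign, both with the floor at the 60th percentile, where they are set by the ratio of the floors. These were Cyp1a2 at 6 h, at 0.043, and Cyp4b1 between the controls, at -0.045. The limma fit called 0 members under every setting, with 1 to 5 members at an unadjusted p under 0.05, which is 1.41% to 4% of those tested, against 1.40% to 4.31% of all probe sets.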

Other observations

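Probe sets that the annotation gives several symbols of these families were not members, and 27 such probe sets exist. Of these, 16 exceeded the floor on at least 1 array. At 24 h 1 of them was at least 2-fold lower with estradiol and 0 higher, against 8.36% and 8.3% of all probe sets above the floor. This was M13234cds_f_at, annotated to Cyp2b15 and Cyp2b2, chosen for mention after its values were seen. It read 108 under estradiol against 231 under vehicle at 24 h, and 236 for the estradiol label against 266 for the control label at 6 h. A brighter probe set, K00996mRNA_s_at, annotated to Cyp2b2 and Cyp2b1, passed the rule in no comparison. It read 622 under estradiol against 728 under vehicle at 24 h, 1.17-fold lower. At 6 h it read 613 for the estradiol label against 734 for the control label.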
